A study of Mus musculus with 2 samples.

Results

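The TBX5 peaks described here lie in 3 stretches of the mouse genome that were named for the genes Tns1, Pdzrn3 and Sh3bgr. A peak was counted in when its summit fell on chromosome 1 from 73.85 to 74.25 Mb (Tns1 window), on chromosome 6 from 101.05 to 101.4 Mb (Pdzrn3 window) or on chromosome 16 from 96.38 to 96.48 Mb (Sh3bgr window), all on build mm9. This gave 42 of the 8849 peaks of the list, 23 in the Tns1 window, 10 in the Pdzrn3 window and 9 in the Sh3bgr window. The windows were chosen by the number and closeness of peaks in this same list, since each holds one of its densest peak groups. Peak numbers, spacing and strength are therefore given as a description beside the values of all peaks, with no test.

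The peaks come from ChIP-seq, in which DNA bound by a protein is pulled down from sheared chromatin with an antibody and sequenced. The chromatin came from cardiac ventricles of untreated wild-type C57BL/6 mice aged 15 weeks, fixed with 2% formaldehyde, and was pulled down with the anti-TBX5 antibody HPA008786. A rabbit IgG served as the control antibody, and each antibody had 2 biological replicates, per the design text. Only a merged list is used here, so that values of single replicates and their spread are not known. Whole ventricles hold several cell types that a peak cannot be assigned to.

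TBX5 is a T-box transcription factor that is needed for heart formation and stays active in the adult heart, where it works with partners such as GATA4 and NKX2-5 at enhancers. Several enhancers can serve one gene and lie in a group over and around it. Tns1 encodes tensin 1, a focal adhesion protein that links actin filaments to integrin tails. Pdzrn3 encodes a RING-type E3 ubiquitin ligase with PDZ domains that is known from muscle differentiation, the neuromuscular junction and vascular Wnt signalling. Sh3bgr encodes a small glutamic acid-rich protein with a thioredoxin-like fold that is abundant in heart and skeletal muscle.

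The gene names are those the windows were given. The only gene table used here is on GRCm38.p6, another build, so no peak was placed in a promoter, exon or intron, and the names could not be checked against the peaks. In that table Tns1 lies between Tnp1 and Rufy4, Pdzrn3 between Ppp4r2 and Cntn3, and Sh3bgr between Lca5l and B3galt5, counting protein-coding genes. A peak in a window may belong to any of these genes or to none.

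Each peak has a fold, the TBX5 signal at the summit over the local control level as the authors' peak caller gave it. The number of TBX5 fragments at the summit and the control level were worked back from the fold and −log10 p of each peak. The median peak of the whole list had a fold of 5.52, with 32 TBX5 fragments over a control level of 3.5 fragments per position. Intervals on fragments are exact 95% Poisson intervals and cover counting error only. Fold intervals follow from them with the control level held fixed. Sites are numbered within each window in order of position.

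The 3 windows differed in spacing and in strength. The Sh3bgr window was the shortest and held the strongest sites, with a median fold of 9.86. The Pdzrn3 window was sparser, with a median fold of 7.22 on no more TBX5 fragments than a median peak of the list. The Tns1 window held the most sites and the closest single pair, and their median fold of 4.20 was below that of the list.

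**Figure D1:**
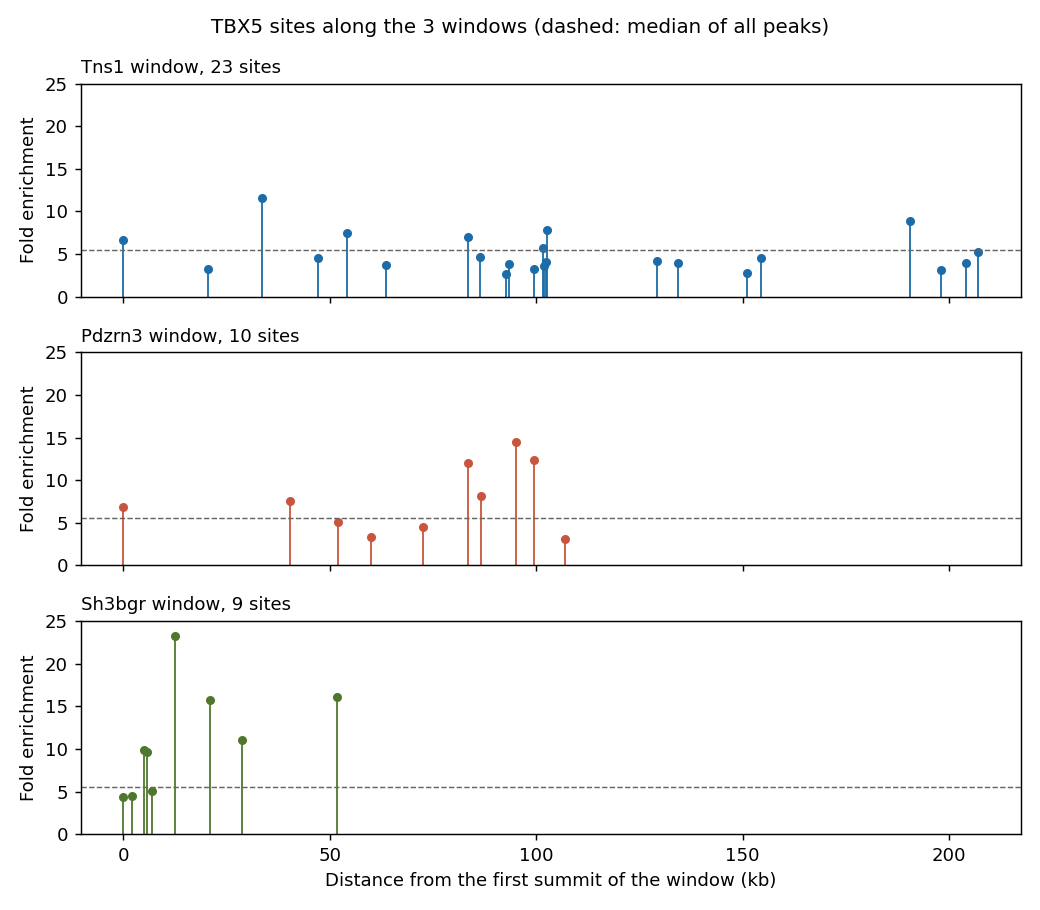
Fold enrichment of each TBX5 site (stem and point) against its distance from the first summit of the window in kb, with 1 panel for each window on shared axes. The dashed line is the median fold of all peaks, 5.52. The Sh3bgr sites span 51.7 kb and reach a fold of 23.2, while the Tns1 sites span 207 kb and stay at or below 11.6.

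The Sh3bgr window is described first because it holds the strongest site of the 42. Site 6, from 96434673 to 96435052, had 176 TBX5 fragments at its summit (151 to 204) over a control level of 5. Its fold was 23.2 (20.0 to 26.9), which placed it 26th by score in the whole list. Site 7, from 96443049 to 96443489, had 119 fragments (98.6 to 142) over the same control level and a fold of 15.8. The intervals of these neighbouring sites, whose summits were 8.42 kb apart, did not overlap.

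On the far side of site 7, site 8 (96450743 to 96451164) held 69 fragments (53.7 to 87.3) and had a fold of 11.1. Site 9 (96473829 to 96474197) stood apart, 22.9 kb beyond site 8. It held 50 fragments (37.1 to 65.9) over a control level of only 1.5, which gave a fold of 16.1, the second highest of the window. Sites 6 to 9 were all 369 to 441 bp wide, against a median width of 202 bp in the list. Site 1, which had the lowest fold of the window, was 376 bp wide as well.

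The other end of the Sh3bgr window held closely set and weaker sites. Sites 3 (96427039 to 96427286) and 4 (96427743 to 96427979) had summits 0.687 kb apart and folds of 9.86 and 9.62 on 52 and 38 fragments. Their intervals, 38.8 to 68.2 and 26.9 to 52.2, overlapped. Site 5 (96429137 to 96429261) followed 1.32 kb further on with 20 fragments and a fold of 5.03. Sites 1 (96421931 to 96422306) and 2 (96424167 to 96424408) had folds of 4.41 and 4.54 on 38 and 24 fragments, and sites 2 and 5 shared the lowest score of the window.

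Signal in the Sh3bgr window was uneven. Sites 6 and 7 together held 50.3% of the 586 fragments summed over the 9 summits, and site 6 alone held 30.0%. Of the 9 sites, 4 had a fold of at least 10, where 13.7% of all peaks do. A score above the upper quartile of the list was found at 6 of the 9, against 24.9% of all peaks.

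In the Pdzrn3 window the strongest sites sat side by side. Site 8, from 101312790 to 101313052, had 63 TBX5 fragments (48.4 to 80.6) over a control level of 2.5 and a fold of 14.4 (11.2 to 18.4). Site 9 (101316949 to 101317495), with its summit 4.42 kb further, had 46 fragments (33.7 to 61.4) and a fold of 12.4. Site 6 (101301149 to 101301450) reached a fold of 12.0 on 32 fragments (21.9 to 45.2), at a control level that was the genome background of 1.18. Site 7 (101304285 to 101304619) lay between sites 6 and 8, 3.09 kb from site 6, the closest pair of the window, and had a fold of 8.20 on 30 fragments. The fragment intervals of sites 6, 7 and 9 overlapped, and those of sites 7 and 8 did not.

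Sites 2 to 5 had lower folds than sites 6 to 9. Site 2 (101257924 to 101258272) had the highest of them, 7.53, on 37 fragments (26.1 to 51.0). Sites 6 and 7 held fewer, but their intervals overlapped that of site 2. Site 3 (101269907 to 101270034) had 18 fragments and a fold of 5.05. Sites 4 (101277821 to 101277991) and 5 (101290222 to 101290362) had 16 fragments each, with folds of 3.40 and 4.53. Site 4 had the lowest score of the window.

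Both end sites of the Pdzrn3 window differed from the rest. Site 1 (101217717 to 101217882) lay 40.3 kb before site 2, the widest gap in the window, and had 24 fragments and a fold of 6.91. Site 10 (101324781 to 101324949) had 34 fragments (23.5 to 47.5), an interval that overlapped those of sites 6 and 7, yet the lowest fold of the window, 3.08. Its control level of 8 was the highest there, while the other 9 sites lay between 1.18 and 3. Site 10 is also the only one of the 42 for which a second pair of numbers, 32 fragments over a level of 7.49, lay within the tolerance.

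In the Tns1 window the 2 highest sites, 7 and 15, held 79 (62.5 to 98.5) and 78 (61.7 to 97.4) TBX5 fragments. Site 7 ran from 74045165 to 74045778 and, at 614 bp, was the widest of the 42, with a fold of 7.02. Site 15 ran from 74064319 to 74064653 and had a fold of 7.79. They are the first and last sites of the densest group of the window.

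Between them lay 7 sites of lower fold. Site 8 (74048087 to 74048323) held 58 fragments and a fold of 4.66. Sites 9 (74054418 to 74054632) and 10 (74055062 to 74055351), 0.742 kb apart, had folds of 2.62 and 3.84, and site 9 had the lowest fold of all 42. Site 11 (74061157 to 74061427) had a fold of 3.29. Sites 12, 13 and 14 lay close before site 15, with summit distances from site to site of 0.242, 0.537 and 0.344 kb up to site 15, and the 0.242 kb between sites 12 and 13 was the shortest distance among the 42.

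Sites 12 (74063274 to 74063501), 13 (74063578 to 74063702) and 14 (74064071 to 74064267) held 43, 22 and 23 fragments, with folds of 5.69, 3.66 and 4.02. Only 76 bp separated the called ends of sites 12 and 13, and 51 bp those of sites 14 and 15. Between sites 13 and 14 the gap was 368 bp. Taking fragments as 125 bp long, a length assumed here, neighbours 76 or 51 bp apart can share fragments. Sites 12 and 13 may therefore be parts of 1 enriched region that the caller divided, and so may sites 14 and 15. Merging summits within 1 kb left 5 sites in this group in place of 9.

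Away from the dense group, site 3 (73995323 to 73995614) had the highest fold and the highest score of the Tns1 window. It held 65 fragments (50.2 to 82.8) and its fold over a control level of 3.5 was 11.6 (8.99 to 14.7). It was the only one of the 23 sites with a fold of 10 or more, against 13.7% of all peaks. Site 5 (74015783 to 74016054) held 65 fragments as well, but over a control level of 6, and its fold was 7.45. Site 20 (74152314 to 74152547) had the second highest fold, 8.90, on 44 fragments.

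The remaining sites of the Tns1 window were mostly weak. Site 1 (73961708 to 73962247) opened the window with 46 fragments and a fold of 6.61, and site 23 (74168649 to 74168840) closed it with 22 fragments and a fold of 5.19. Site 18 (74112863 to 74112987) had the lowest score, with 27 fragments over a control level of 7 and a fold of 2.78. The widest gap, 36.2 kb, lay between site 19 (74116104 to 74116306, fold 4.51) and site 20. Sites 2, 4, 6, 16, 17, 21 and 22 had folds between 3.17 and 4.49. In all, 15 of the 23 sites had a fold below 5, as did 41.3% of all peaks.

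**Figure D2:**
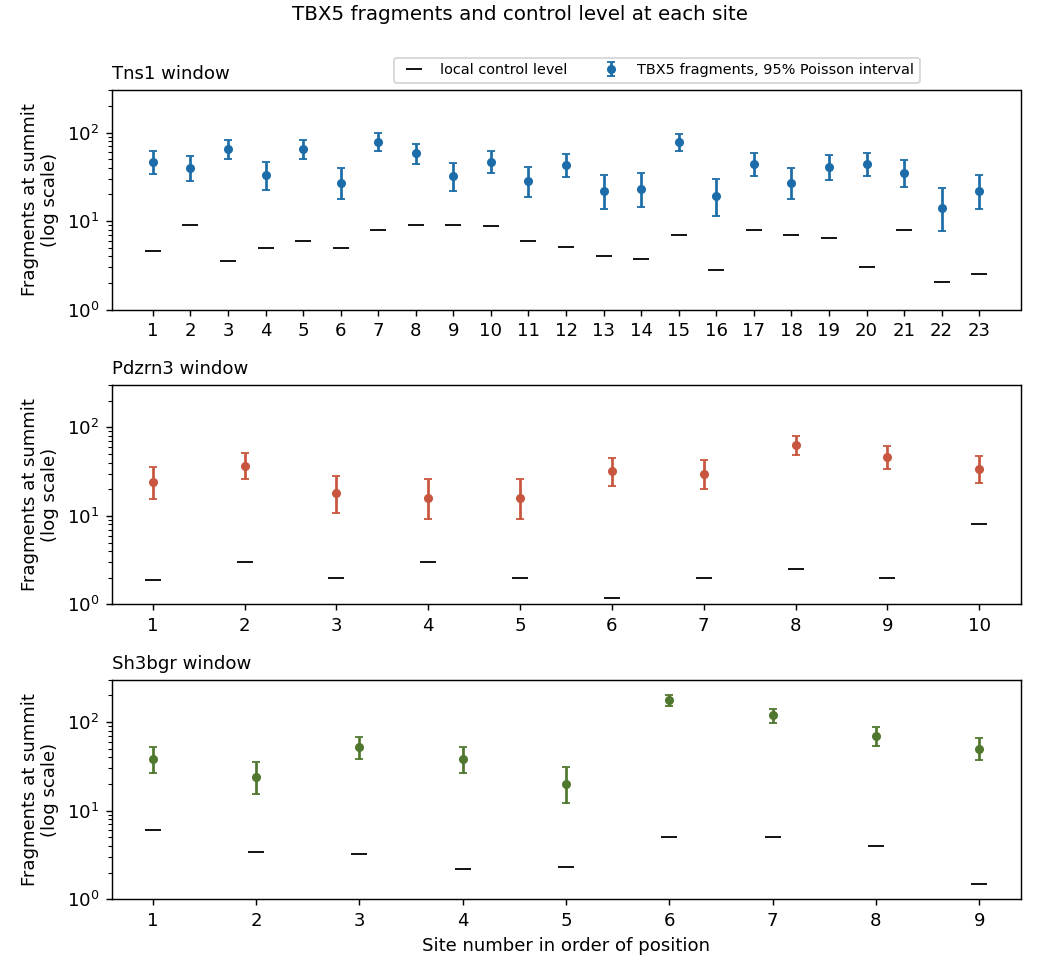
TBX5 fragments at the summit (points, bars are exact 95% Poisson intervals) and local control level (dashes) of each site in order of position, on a log scale. Fragments enter the fold after scaling by 0.787. Sites 6 and 7 of the Sh3bgr window stand above all others, and the control level of most Tns1 sites is above that of all Pdzrn3 sites except site 10.

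The windows ranked differently by fold and by fragments. By median fold the order was Sh3bgr (9.86), Pdzrn3 (7.22) and Tns1 (4.20). By median TBX5 fragments it was Sh3bgr (50), Tns1 (40) and Pdzrn3 (31). Fragments above the list median were found at 14 of 23 Tns1 sites, 4 of 10 Pdzrn3 sites and 7 of 9 Sh3bgr sites, against 48.9% of all peaks. A fold above the list median was found at 7 of 23, 6 of 10 and 6 of 9, against 49.2% of all peaks.

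The control level went with this change of order. Its median was 6 at the Tns1 sites, 2 at the Pdzrn3 sites and 3.38 at the Sh3bgr sites. Levels of at least 5 occurred at 15 of 23 Tns1 sites, 1 of 10 Pdzrn3 sites and 3 of 9 Sh3bgr sites, and at 35.7% of all peaks. The highest of any window, 9, was shared by Tns1 sites 2 (73982085 to 73982390), 8 and 9. The fold has this level in its denominator. Why the level differed between the windows was not tested. Taken as a difference, scaled TBX5 fragments less the control level, the medians were 22.5 for Tns1, 20.2 for Pdzrn3 and 37.7 for Sh3bgr, beside 20.3 for the list.

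Pairs of sites with near equal fragments, chosen after their values were seen, show how the control level enters the fold by its formula. Sites 17 (74096025 to 74096379) and 20 of the Tns1 window both held 44 fragments, over control levels of 8 and 3, and had folds of 3.96 and 8.90. In the Sh3bgr window sites 1 and 4 both held 38 fragments, over levels of 6 and 2.21, and had folds of 4.41 and 9.62. In the Pdzrn3 window sites 10 and 6 held 34 and 32 fragments, over levels of 8 and 1.18, and had folds of 3.08 and 12.0. For the strongest sites, fragments gave 1 clear step. The interval of Sh3bgr site 6 lay above those of Tns1 site 7 and Pdzrn3 site 8, which overlapped each other.

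**Figure D3:**
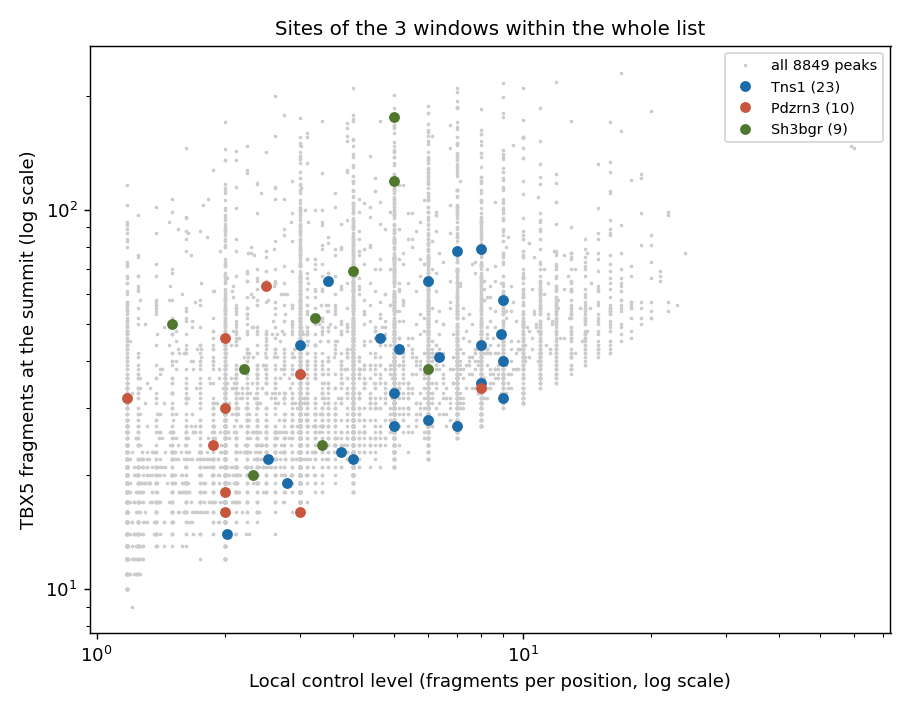
TBX5 fragments at the summit against the local control level, both on log scales, for all 8849 peaks (grey) and the sites of the 3 windows (coloured). The Tns1 sites lie mostly at higher control levels than the Pdzrn3 sites, and Sh3bgr sites 6 and 7 high over a control level of 5.

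Spacing was tightest in the Sh3bgr window by median distance over the whole window. Neighbouring summits were a median of 4.27 kb apart there (range 0.687 to 22.9 kb, 8 distances), 6.23 kb apart in the Tns1 window (0.242 to 36.2 kb, 22 distances) and 8.53 kb apart in the Pdzrn3 window (3.09 to 40.3 kb, 9 distances). Over the whole list the median was 74.1 kb. Another summit within 1 kb was found at 6 of 23 Tns1 sites, 0 of 10 Pdzrn3 sites and 2 of 9 Sh3bgr sites, against 8.78% of all peaks.

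The pattern of distances differed too. Of the 9 Pdzrn3 distances, 2 were from 1000 to 5000 bp, 6 from 5000 to 12500 bp and 1 above. The 22 Tns1 distances fell into 4 under 1000 bp, 4 from 1000 to 5000 bp, 7 from 5000 to 12500 bp and 7 above. Those of the Sh3bgr window were 1, 3, 3 and 1. Over the whole list the shares of these 4 classes were 4.54%, 8.50%, 8.62% and 78.3%, and the windows were chosen for close peaks. In each window the summits covered only part of the stretch, 51.7% of the Tns1 window, 30.6% of the Pdzrn3 window and 51.7% of the Sh3bgr window.

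**Figure D4:**
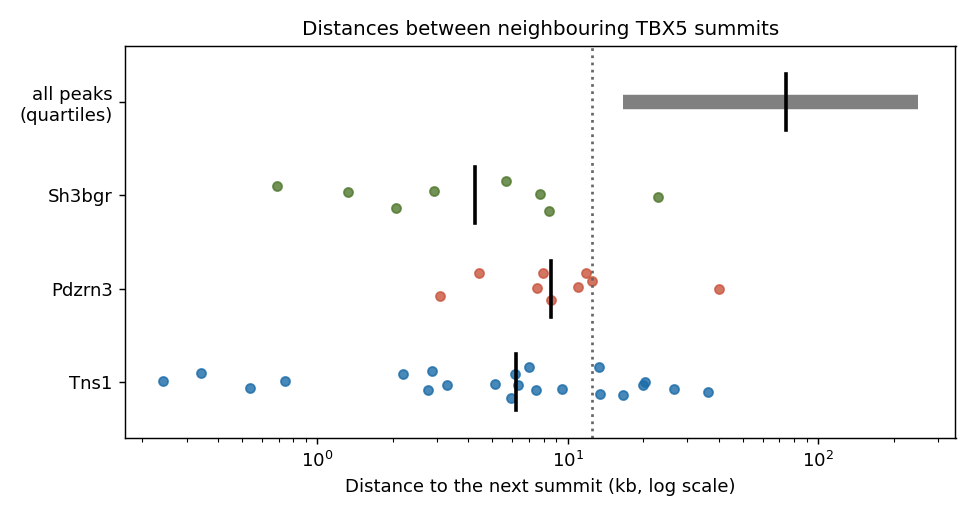
Distance from each summit to the next one in the same window (points, kb, log scale), with the median as a black bar. The grey bar spans the quartiles of all neighbouring peaks of the list, 16.6 to 250 kb, and the dotted line marks 12500 bp. Most distances in the windows lie below the lower quartile of the list, and only the Tns1 and Sh3bgr windows have any under 1 kb.

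Peaks no more than 12500 bp apart, from end to start, were stitched into groups. The Pdzrn3 window then held a group of 9 (sites 2 to 10, 67.0 kb) and a lone site, and the Sh3bgr window a group of 8 (sites 1 to 8, 29.2 kb) and a lone site. The Tns1 window fell into 5 groups and 3 lone sites, the largest with 9 peaks in 19.5 kb (sites 7 to 15). Called peaks covered 12.9% of that Tns1 group, 3.59% of the Pdzrn3 group and 8.45% of the Sh3bgr group. Within these groups the median distance between summits was 1.47 kb (Tns1), 8.24 kb (Pdzrn3) and 2.91 kb (Sh3bgr). By this measure the Tns1 group was the tightest, unlike its window as a whole.

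Together with 7 groups elsewhere these are the 10 groups of 8 or more peaks in the list, and the 3 stood at its ends in several measures. The Tns1 group had the shortest span of the 10, the lowest median fold (4.02) and the highest median control level (7). The Pdzrn3 group had the longest span and the lowest median control level (2), and the fewest fragments at its highest summit. The Sh3bgr group had the highest median fold (9.74) and the highest single fold. Its strongest summit was second in fragments to the 210 of a group on chromosome 9 from 119378723 to 119407025. These ranks describe 10 groups of 1 list and were not tested.

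Distance to the nearest summit and fold showed no common relation across sites. Spearman's rho was 0.18 over the 23 Tns1 sites, -0.51 over the 10 Pdzrn3 sites and 0.58 over the 9 Sh3bgr sites. The sites of a window share 1 merged library, neighbouring sites share the same distance, and no p is given. Of the 10 Pdzrn3 sites, 3 had a fold of at least 10, against 13.7% of all peaks. These 3 stood 3.09 to 4.42 kb from their nearest neighbour. The 4 Sh3bgr sites with such a fold stood 5.64 to 22.9 kb from theirs. Sh3bgr sites 3 and 4, with folds just below 10, stood only 0.687 kb apart.

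The surroundings of the windows also differed. The peaks next to the Pdzrn3 window lay 607 kb before site 1 and 979 kb after site 10, with folds of 3.97 and 6.04. Those next to the Tns1 window lay 184 kb before site 1 and 114 kb after site 23, with folds of 5.05 and 2.50. After Sh3bgr site 9 the next peak was 106 kb away, with a fold of 4.79. Before Sh3bgr site 1 the next peak of the list was 437 kb away, with a fold of 3.79, but 1 peak number of the caller falls between them. Its peak was not analysed here and may lie inside the Sh3bgr window, so the 9 sites and their spacing may lack 1 peak at that end. From the first to the last site of each window the caller's peak numbers ran without a gap.

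Group sizes were also taken on the higher-scoring part of the list, above its median score, which holds 49.4% of all peaks. Such a cut only takes sites out, so that smaller groups follow from it. In that part 9 of the 23 Tns1 sites remained, and the largest group in that window fell to 2 peaks. Of the 10 Pdzrn3 and 9 Sh3bgr sites 6 each remained, with largest groups of 4 and 5.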

How the data were processed

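The data are 1 merged list of TBX5 ChIP-seq peaks on mm9, made with MACS2 2.1.1.20160309.0 after Bowtie2 2.2.6.2, per the submitters' processing notes. Its control library, settings and merging of replicates are unstated there. The authors' caller gave each deposited peak a fold (a ratio), a score, −log10 p and −log10 q, the last at least 1.30.

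In MACS2 the fold is (scaled TBX5 pileup + 1) / (control level + 1), and p is the Poisson tail of the pileup. The control level is the largest of the summit pileup, the averages over 1 and 10 kb, and a genome background. With a scale of 0.787 and a background of 1.18, whole numbers of fragments were found for all 8849 peaks, within 0.005 on −log10 p. For 240 peaks another pair was also within 0.005, and the nearest was kept. On data simulated with these same formulas (12644 and 14270 peaks) 100% of pairs were recovered. That checks the solving step but not whether the list follows the formulas, and averages over 10 kb were not simulated.

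Members, lists and settings were chosen with earlier results of these data known. Sites named are, in each window, the 5 highest and the lowest by score, the first and last, the closest pair, both sides of the widest gap, the highest control level and the largest group. No test was made, since a merged list has no replicates. Planned counts of gene position and T-box motifs need an mm9 genome, which was not used here, so no sequence was read. Tools were numpy 2.4.6, pandas 2.3.3, scipy 1.17.1 and matplotlib 3.10.9 under Python 3.11.15.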

Additional observations from a re-analysis of the deposited data

How the results depend on the processing

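Of 60 values recomputed under other settings, 47 stayed within 1.5 times the main count or the 95% interval of the main median or share. The other 13 moved. Several of the 47 could not have moved. The Pdzrn3 window has no summits within 1 kb to merge. Edges moved outward by 50 kb took no further peak into the Pdzrn3 or Sh3bgr window. The intervals treat sites as independent, and that of the Sh3bgr distances spans their full range, 0.687 to 22.9 kb. The 47 are therefore no measure of how stable the results are. With only the higher-scoring peaks, 49.4% of the list, the Tns1 window held 9 peaks, and its largest group had 2. Their median distance was 24.9 kb, with a median fold of 7.02 and a median of 58 fragments. The Pdzrn3 window then held 6 peaks with a largest group of 4, and the largest Sh3bgr group had 5. Merging summits within 1 kb took the largest Tns1 group to 5. Stitching at 5 kb gave largest groups of 5 (Tns1), 2 (Pdzrn3) and 5 (Sh3bgr), and stitching at 25 kb gave 15 in the Tns1 window. Under every setting run the order of the windows by median fold and by median fragments was as reported, though the main intervals overlapped. Among the higher-scoring peaks the median fragments of the Sh3bgr and Tns1 windows were close, 60.5 and 58. The order by median distance changed with the higher-scoring peaks, where the Tns1 distances were the longest. No paired analysis was possible because the replicates were merged into 1 list, which also left none to leave out. The settings for gene position and motifs were not run. Sites under the caller's threshold are not in the list.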
